A study of Mus musculus with 12 samples.

Results

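The genes described here are 10 members of the endogenous Met axis and of its feedback: the receptor gene Met, its ligand gene Hgf, the phosphatase genes Dusp4, Dusp5 and Dusp6, the Sprouty genes Spry2 and Spry4, the transcription factor genes Etv4 and Etv5, and Ccnd1, which encodes cyclin D1. They were taken as a named list, matched to the count table through their Entrez identifiers, and all 10 of 10 were found among the 27179 genes counted. Their RNA was measured by bulk RNA-seq in 12 mouse livers, 1 library each, in 4 groups of 3. Young adult male mice were fed chow (CD) or a low-protein diet (LPD) from before the injection until harvest. They received either empty vector (Vec, called WT in the labels) or a pair of oncogenes (Onc), human c-MET and a β-catenin that lacks its N terminus and is constitutively active. The groups are written CD Vec, CD Onc, LPD Vec and LPD Onc. Every group, Vec included, was injected hydrodynamically through the tail vein, and plasmid integration relied on Sleeping Beauty transposase. Both oncogenes were driven by the EF1α promoter and reached only part of the hepatocytes, so each library mixes transfected cells, other hepatocytes and other liver cells. Harvest was at 1 time for all, when the CD Onc mice reached their end point. At that time the study reports a lower tumor burden in oncogene mice on LPD than on CD. The labels give no strain, and the study's methods describe the background in more than 1 way.

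MET is a receptor tyrosine kinase at the surface of hepatocytes, and its ligand, hepatocyte growth factor, is made in liver mainly by non-parenchymal cells such as stellate cells. An active receptor signals through RAS, RAF and MEK to the kinase ERK, which enters the nucleus and induces genes that act back on the pathway. The DUSP proteins remove phosphates from ERK and related kinases, Sprouty proteins dampen the signal between receptor and RAF, and Etv4 and Etv5 encode ETS transcription factors of the PEA3 family. Cyclin D1 binds CDK4 and CDK6 to drive cells through G1, and its gene is transcribed in response to ERK and, in several settings, to β-catenin. Only RNA was measured here, so the activity of MET or ERK is not known from these data.

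The labels call the cell type hepatocyte, but the tissue was whole liver. The 8 hepatocyte markers summed to between 66660 and 118556 CPM (counts relative to the total, scaled) across libraries, with Alb highest in every group. Markers of other cells were also present: the 10 stellate cell and fibroblast markers summed to between 259.6 and 636 CPM, and the 7 cholangiocyte and progenitor markers to between 36.8 and 382 CPM. In bulk samples, fewer cells of a type and less RNA per cell cannot be told apart. Library totals lay between 19476209 and 31990267 counts. CD Vec replicate 2 stood apart from the others on the second principal component, at 60.0 with no other library above 18.9, and calls of members that changed without it are given both ways.

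By position in the RefSeq annotation of GRCm38.p6, Met (Entrez 17295) spans 17463349 to 17573980 of chromosome 6 and Hgf (Entrez 15234) 16553495 to 16619439 of chromosome 5. Dusp4 (Entrez 319520) lies on chromosome 8 from 34807610 to 34819894, Dusp5 (Entrez 240672) on chromosome 19 from 53529145 to 53541809, and Dusp6 (Entrez 67603) on chromosome 10 from 99263231 to 99267489. Spry2 (Entrez 24064) lies on chromosome 14 from 105891947 to 105896819. Etv4 (Entrez 18612) lies on chromosome 11 from 101769747 to 101785310, Etv5 (Entrez 104156) on chromosome 16 from 22381313 to 22439570, and Ccnd1 (Entrez 12443) on chromosome 7 from 144929931 to 144939831. The 10 genes are all protein coding, and counts are over their exons.

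Sequence upstream of Dusp5 and of Dusp6 is shown because these phosphatase genes were both higher in the oncogene livers on CD. Bases are from RefSeq on the plus strand of GRCm38.p6, chr19:53528895-53529108 for Dusp5 and chr10:99262981-99263230 for Dusp6, with the letters of a motif match in capitals. For Dusp5 the last 36 bases before the RefSeq start are not shown, because the gene starts earlier in GENCODE M21, whereas the Dusp6 stretch runs up to the RefSeq start.
Dusp5: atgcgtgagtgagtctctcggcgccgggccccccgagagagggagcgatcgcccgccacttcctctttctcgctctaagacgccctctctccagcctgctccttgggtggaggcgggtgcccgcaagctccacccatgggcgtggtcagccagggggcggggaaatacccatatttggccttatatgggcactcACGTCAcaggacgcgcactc
Dusp6: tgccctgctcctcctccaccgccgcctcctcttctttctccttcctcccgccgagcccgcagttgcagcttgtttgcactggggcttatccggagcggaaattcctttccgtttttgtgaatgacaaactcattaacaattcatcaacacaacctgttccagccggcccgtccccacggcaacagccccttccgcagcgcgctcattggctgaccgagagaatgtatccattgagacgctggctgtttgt

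A motif search covered the 250 bases before annotated transcript starts of the 6 members with an entry in the RefSeq promoter table (Met, Hgf, Dusp5, Dusp6, Spry2 and Etv5, in 8 windows), on both strands. The Met window, 17463707 to 17463956 of chromosome 6, and 1 window each of Hgf and Etv5 belong to transcripts that start inside the gene spans given above. The letters were CTTTGA for TCF/LEF, TGANTCA for AP-1, CCGGAA for ETS and TGACGT for CRE. No motif overlapped another in these windows. Dusp5 held 1 CRE match on the minus strand, beginning 56 bases before the RefSeq start, and 6.47% of all 32851 windows in the table hold these letters. The Met window held 1 AP-1 match beginning 54 bases before its transcript start, against 6.75% of all windows. The other members' windows held no match to any of the 4 motifs, whereas CTTTGA occurs in 13.8% and CCGGAA in 12% of all windows. A match is a description of letters and not a site. Promoters of Dusp4, Spry4, Etv4 and Ccnd1 were not used here.

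Levels differed widely between the members. Per kilobase of exon, the means in CD Vec livers were 14.2 CPM for Dusp6, 12.2 CPM for Met and 11.6 CPM for Ccnd1, and the library ranges of these 3 genes overlapped. Spry4 followed at 4.44 CPM per kilobase, below all libraries of the first 3 genes. Dusp4 at 0.951, Etv5 at 0.884, Hgf at 0.754 and Spry2 at 0.721 CPM per kilobase had overlapping ranges. Dusp5 at 0.299 CPM per kilobase overlapped only Hgf among them, and Etv4 at 0.0738 was below every library of the other members.

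**Figure D1:**
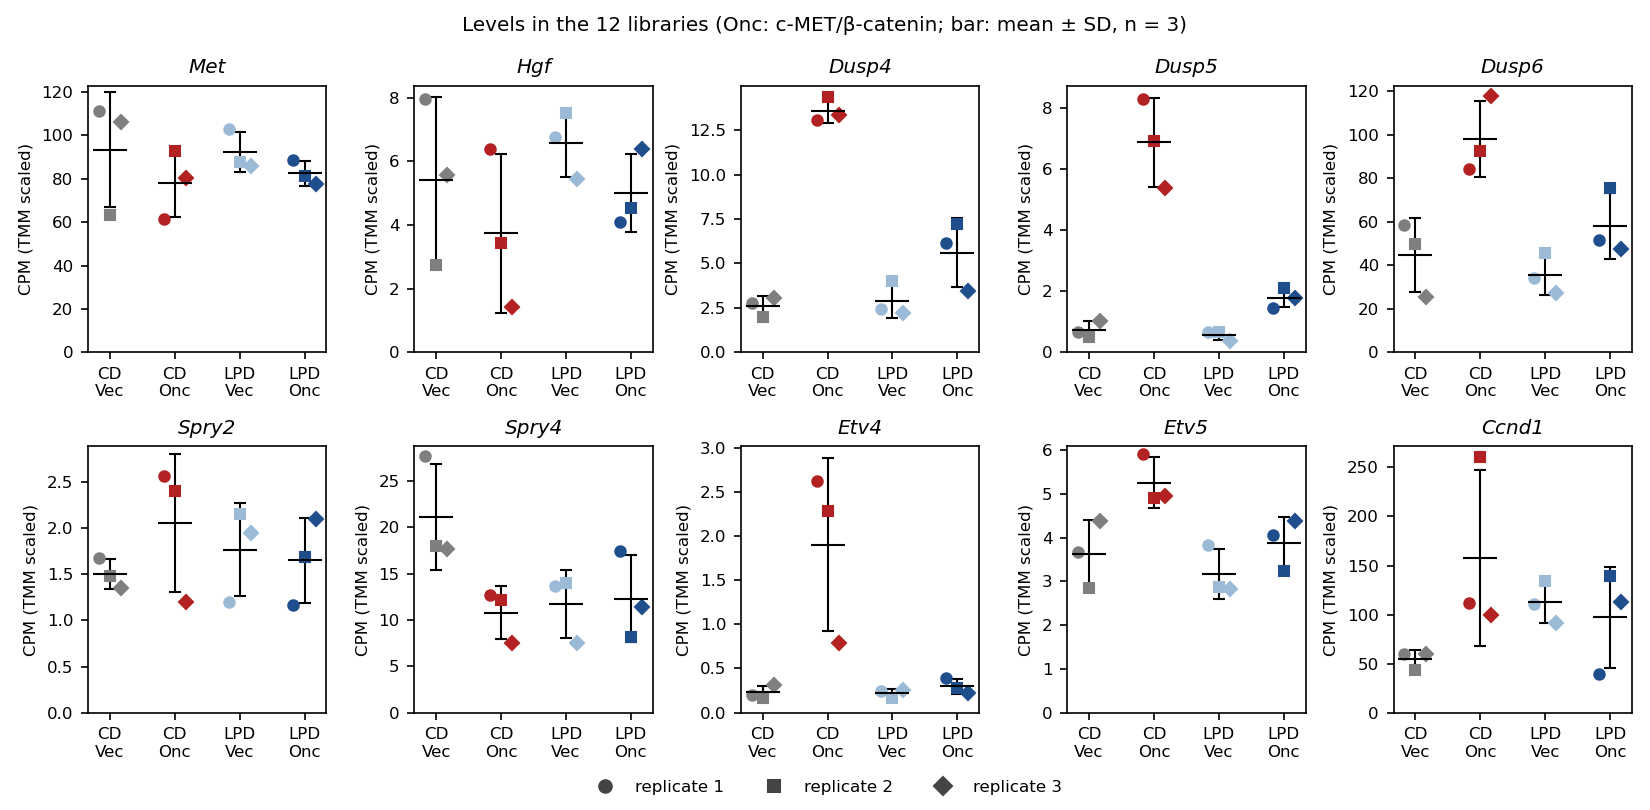
Each panel plots 1 gene, with CPM scaled by the trimmed mean of M values (TMM) on the vertical axis and the 4 groups on the horizontal axis. Points are libraries (circle, square and diamond for replicates 1, 2 and 3), bars are mean ± SD (n = 3). For Dusp4, Dusp5, Dusp6, Etv4 and Etv5 all 3 CD Onc libraries lie above the other 9 libraries, whereas the groups overlap for Met, Hgf and Spry2. The share of all genes that lie apart in this way was not computed. Etv4 was tested only through the CD Onc libraries.

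The first comparison asked what the oncogenes did to these genes on chow. On CD, the transcripts of 3 ERK phosphatase genes, of the transcription factor gene Etv4 and of Ccnd1 rose in Onc livers, and Spry4 fell, while the receptor and ligand genes Met and Hgf did not pass the test. Differences were tested by edgeR's quasi-likelihood method over all 13947 genes with enough counts, with Benjamini-Hochberg adjustment and a call at an adjusted p under 0.05. Of the 10 members 6 were called, 5 higher and 1 lower, where 35.4% of all genes tested were called on CD, 18.7% higher and 16.7% lower. Etv4 had enough counts to be tested only through the CD Onc libraries, so it had to differ to be tested. Without it, 5 of 9 members were called, a larger share than over all genes. That difference was not tested. The members were chosen with earlier results of these data known, so the larger share is not a result about them. The median log2 fold change of the members was 0.84, or 0.53 without Etv4, beside -0.010 over all genes tested.

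Met encodes the receptor itself. The alignment was to mouse, so no value here is a direct measure of the human transgene. Endogenous Met stood at 111, 63.1 and 106 CPM in CD Vec replicates 1, 2 and 3, and at 61.5, 92.6 and 80.3 CPM in CD Onc. The groups overlapped, and the lowest Vec library was the one that stood apart. The log2 fold change was -0.26 (adjusted p = 0.349, SE 0.20, edgeR), and 2 SE on either side reached from -0.66 to 0.15. Without CD Vec replicate 2 the log2 fold change was -0.48 (adjusted p = 0.0349, edgeR), which passes the test. Scaling by total counts alone gave 0.02. Whether reads of the human transgene aligned in part to mouse Met was not tested.

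Hgf encodes the ligand. It was at 7.95, 2.73 and 5.57 CPM in CD Vec and at 6.38, 3.43 and 1.42 CPM in CD Onc libraries. The spread within each group was wider than the distance between the means, with a coefficient of variation of 48.2% in CD Vec and 66.7% in CD Onc. The log2 fold change was -0.53 (adjusted p = 0.415, SE 0.47), and 2 SE reached from -1.47 to 0.42. Among the stellate cell and fibroblast markers, 8 of 10 were called on CD, 4 higher and 4 lower, where 35.4% of all genes were called, and none was at 0. Their part in the Hgf values was not tested.

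Dusp5 encodes a nuclear phosphatase that acts on ERK. It was at 0.662, 0.512 and 1.04 CPM in CD Vec and at 8.29, 6.94 and 5.39 CPM in CD Onc, so the lowest oncogene library was above the highest Vec library. It had the largest rise of the members, with a log2 fold change of 3.20 (9.22-fold, adjusted p = 4.4e-05, SE 0.33). The raw counts behind it were 13, 9 and 20 in CD Vec and 287, 170 and 144 in CD Onc.

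Dusp4, whose product is a nuclear phosphatase for ERK and related kinases, was at 2.75, 1.99 and 3.07 CPM in CD Vec. In CD Onc it was at 13.1, 14.4 and 13.4 CPM. The 3 oncogene livers were nearly alike, with a coefficient of variation of 5.02%, and all lay above the Vec libraries. Dusp4 rose by a log2 fold change of 2.38 (5.2-fold, adjusted p = 0.000167, SE 0.31).

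Dusp6, the cytoplasmic ERK phosphatase and the most abundant of these phosphatases, was at 58.3, 49.9 and 25.5 CPM in CD Vec and at 84.3, 92.5 and 118 CPM in CD Onc. The groups did not overlap, but the Vec libraries themselves spanned a range from 25.5 to 58.3 CPM. Its log2 fold change was 1.14 (2.2-fold, adjusted p = 0.011, SE 0.30). The 3 fitted values ran in the reverse order of the genes' CPM per kilobase in CD Vec, and differences between the genes were not tested. With the clock score described below as a covariate, Dusp6 was at 1.06 (adjusted p = 0.131).

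The Sprouty genes did not follow the phosphatases. Spry4 (Entrez 24066) was at 27.7, 18.0 and 17.7 CPM in CD Vec and at 12.7, 12.2 and 7.49 CPM in CD Onc, and the groups did not overlap. It fell by 0.97 on the log2 scale (adjusted p = 0.0362, SE 0.33). The call was lost without CD Vec replicate 1 (-0.72, adjusted p = 0.134), without CD Onc replicate 3 (-0.77, adjusted p = 0.11) and without CD Onc replicate 2 (-1.07, adjusted p = 0.0571). It was also lost with scaling by total counts alone (-0.69, adjusted p = 0.116), with the stricter filter on low counts (-0.92, adjusted p = 0.0508) and with the clock score described below as a covariate (-0.75, adjusted p = 0.379). Spry2 was at 1.68, 1.48 and 1.35 CPM in CD Vec and at 2.57, 2.41 and 1.20 CPM in CD Onc. One oncogene library lay below all Vec libraries and the other two lay above them, and the log2 fold change of 0.45 (adjusted p = 0.338, SE 0.35) did not pass.

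Etv4 was close to the detection limit in every group but one. CD Vec libraries had 4, 3 and 6 counts, or 0.204, 0.171 and 0.312 CPM, and CD Onc libraries had 91, 56 and 21 counts, or 2.63, 2.28 and 0.786 CPM. Replicate 3 was the lowest of the oncogene libraries and still above each Vec library. The log2 fold change was 3.02 (8.12-fold, adjusted p = 0.000772, SE 0.50). Its relative Etv5 was at 3.67, 2.84 and 4.37 CPM in CD Vec and at 5.92, 4.90 and 4.94 CPM in CD Onc. Those groups did not overlap either, but the log2 fold change of 0.53 (SE 0.23) did not pass after adjustment (adjusted p = 0.0858, unadjusted p = 0.0359). Scaling by total counts alone gave 0.81 for Etv5 (adjusted p = 0.0129, edgeR), which passes.

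Ccnd1 was at 59.8, 43.1 and 60.2 CPM in CD Vec and at 112, 261 and 99.2 CPM in CD Onc. All oncogene libraries were above all Vec libraries, and replicate 2 was more than 2-fold above the other oncogene libraries. Ccnd1 rose by a log2 fold change of 1.53 (2.89-fold, adjusted p = 0.0208, SE 0.45). Without CD Onc replicate 2 the value was 0.96 (adjusted p = 0.0918), and without CD Vec replicate 2 it was 1.38 (adjusted p = 0.0723), so the call rested on each of these libraries.

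The livers also differed in a score of circadian clock genes, the mean standardized log2 CPM of Arntl, Npas2 and Clock minus that of Nr1d1, Nr1d2, Dbp, Per3, Tef and Ciart. It was between -1.66 and -1.57 in CD Vec and at 3.30, -1.20 and 3.02 in CD Onc replicates 1, 2 and 3. The library with the highest Ccnd1 was therefore the oncogene library whose clock score was nearest to Vec. The part of the clock score in the Ccnd1 level was not tested beyond the fit with the score as covariate, in which 4 members stayed called on CD. In that fit 14.6% of all genes were called on CD, beside 35.4% without the score.

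A second header line of the count table numbers the columns in 3 separate runs, which the labels do not explain, and only 1 CD Vec and 1 CD Onc library fall in the same run. Between these 2 libraries, the log2 differences were 2.09 for Dusp4, 2.27 for Dusp5, 2.20 for Dusp6, 1.10 for Etv4, 0.72 for Ccnd1 and -1.23 for Spry4. Over all CD libraries the differences on the same scale, log2(CPM + 0.1), were 2.36, 3.08, 1.21, 2.47, 1.41 and -0.97. The direction was the same for each of these 6 genes, the sizes were not, and the single pair has no spread. With a term for the runs in the fit, 3 of the 6 stayed called. The others did not, with Spry4 at -1.25 (adjusted p = 0.178), Etv4 at 1.58 (adjusted p = 0.139) and Ccnd1 at 0.78 (adjusted p = 0.574), so the Etv4 and Ccnd1 values were smaller than without the term and that of Spry4 was not. In that fit 6.78% of all genes were called on CD.

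**Figure D2:**
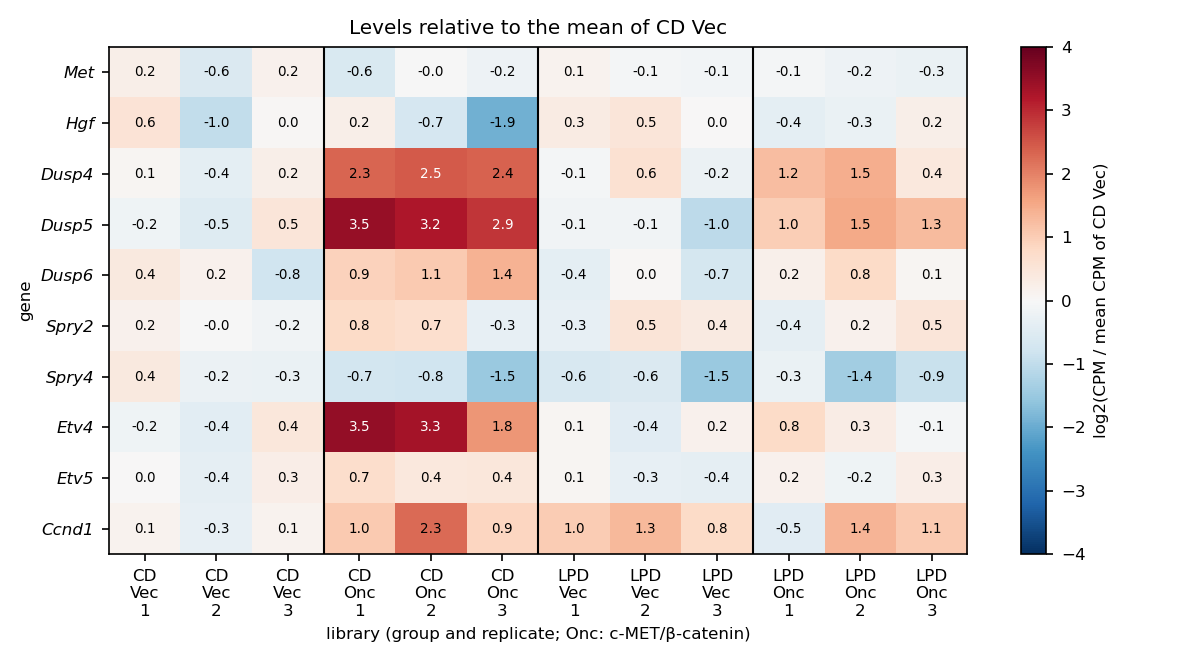
Each cell gives log2 of the CPM in 1 library (columns, by group and replicate) over the mean CPM of CD Vec for 1 gene (rows), in red where higher and in blue where lower. The Dusp4, Dusp5 and Etv4 rows are red in the 3 CD Onc columns, and the Ccnd1 row is also red in all 3 LPD Vec columns, with group means of 54.4 CPM in CD Vec and 112 CPM in LPD Vec.

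The second comparison asked the same of LPD-fed livers. On LPD, Dusp5 alone was called, and the log2 fold changes of Dusp4 and Dusp6 were also above 0 but did not pass. Of all genes tested 1.32% were called on LPD, and of the members 1 of 10. The median log2 fold change was 0.18 over the members, or 0.06 without Etv4, and 0.011 over all genes tested.

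Dusp5 was at 0.672, 0.676 and 0.359 CPM in LPD Vec and at 1.47, 2.11 and 1.79 CPM in LPD Onc. The groups did not overlap, and the 3 LPD oncogene libraries also lay above all CD Vec libraries and below all CD Onc libraries. Dusp5 rose by a log2 fold change of 1.64 (3.11-fold, adjusted p = 0.038, SE 0.34). Within the header run that holds all 3 LPD oncogene libraries and 2 of the LPD Vec libraries, the difference was 1.65. With a term for the runs the call was lost (1.54, adjusted p = 0.122). It was also lost with a replicate block (1.65, adjusted p = 0.0775), the clock covariate (1.64, 0.0574) and the stricter filter (1.65, 0.0523). The call sat close to the threshold and was lost in 8 of the 12 fits with 1 library removed, whose values lay between 1.41 and 1.78.

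Dusp4 was at 2.45, 4.01 and 2.21 CPM in LPD Vec and at 6.16, 7.19 and 3.45 CPM in LPD Onc. These groups overlapped, since the lowest oncogene library was below the highest Vec library, and the log2 fold change of 0.95 (SE 0.30, unadjusted p = 0.00784) had an adjusted p of 0.19 by edgeR. Dusp6 was at 34.0, 45.5 and 27.4 CPM in LPD Vec and at 51.7, 75.4 and 47.3 CPM in LPD Onc. The groups did not overlap, and the log2 fold change was 0.71 (adjusted p = 0.383, SE 0.29).

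Etv4 remained at the bottom of the scale, at 0.240, 0.169 and 0.256 CPM in LPD Vec and 0.391, 0.281 and 0.219 CPM in LPD Onc, from 4 to 8 counts a library. Etv5 was at 3.84, 2.87 and 2.82 CPM in LPD Vec and at 4.06, 3.23 and 4.37 CPM in LPD Onc. Both genes overlapped between the groups, with log2 fold changes of 0.41 (SE 0.57) and 0.29 (SE 0.23) that did not pass.

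Spry4 was at 13.6, 14.0 and 7.49 CPM in LPD Vec and at 17.4, 8.14 and 11.4 CPM in LPD Onc. Spry2 was at 1.20, 2.15 and 1.95 CPM in LPD Vec and at 1.17, 1.68 and 2.10 CPM in LPD Onc. Neither gene separated the groups, and the log2 fold changes were 0.06 (SE 0.33) and -0.10 (SE 0.35).

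Met was at 103, 87.9 and 85.9 CPM in LPD Vec and at 88.5, 81.4 and 77.4 CPM in LPD Onc, with a log2 fold change of -0.16 (SE 0.20). Hgf was at 6.77, 7.52 and 5.44 CPM in LPD Vec and at 4.10, 4.53 and 6.38 CPM in LPD Onc, with a log2 fold change of -0.39 (SE 0.47). The receptor and ligand groups overlapped on LPD as they did on CD.

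Ccnd1 was at 111, 135 and 91.9 CPM in LPD Vec and at 39.7, 139 and 113 CPM in LPD Onc. Replicate 1 of the oncogene group was the lowest of all 12 libraries, and the other two lay within or just above the Vec range. The log2 fold change was -0.21 (adjusted p = 0.937, SE 0.44), and without that library it was 0.17. The clock score of that library was 0.45, against 0.36 and -0.47 in the others of its group.

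The third comparison set LPD against CD in Vec livers, to show the effect of diet without the oncogenes. No member was called by edgeR, 2 had an unadjusted p under 0.05, and DESeq2 also called none. Of all genes tested 0.308% were called by edgeR and 2.43% by DESeq2. The 2 members were Ccnd1 and Spry4. Every LPD Vec library had more Ccnd1 than every CD Vec library, with group means of 112 ± 21.4 and 54.4 ± 9.76 CPM (SD, n = 3 each), and the log2 fold change was 1.05 (SE 0.44, unadjusted p = 0.0374, adjusted p = 0.462, edgeR). Every LPD Vec library had less Spry4 than every CD Vec library, and the log2 fold change was -0.85 (SE 0.33, unadjusted p = 0.0233, adjusted p = 0.383, edgeR). Neither passes the test over all genes. The other members lay between -0.37 (Dusp5, SE 0.37) and 0.28 (Hgf, SE 0.47), and Met was at -0.02 (SE 0.20).

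The fourth comparison set LPD against CD in Onc livers. Tumor burden was lower on LPD, so diet and tumor content of the liver cannot be told apart here. Dusp4, Dusp5 and Etv4 were lower in LPD Onc than in CD Onc livers and passed the test. None of the members was called higher. This is 3 of 10 members, where 20.0% of all genes tested were called, 8.66% higher and 11.3% lower. Leaving aside Etv4, tested only through its CD Onc counts, 2 of 9 were called, a share close to that background. The median log2 fold change was -0.57 over the members, or -0.44 without Etv4, and -0.011 over all genes tested. This comparison and the first share the CD Onc libraries, so a high value in those libraries enters both.

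Dusp5 was 3.82-fold lower on LPD, with group means of 1.79 ± 0.320 CPM on LPD and 6.87 ± 1.45 CPM on CD (SD, n = 3 each), or -1.93 on the log2 scale (adjusted p = 0.0015, SE 0.30). Dusp4 was at 5.60 ± 1.93 CPM on LPD and 13.6 ± 0.682 CPM on CD, a log2 fold change of -1.28 (adjusted p = 0.00986, SE 0.29). Etv4 was at 0.297 ± 0.0872 CPM on LPD and 1.90 ± 0.980 CPM on CD, a log2 fold change of -2.67 (adjusted p = 0.00292, SE 0.47). All 3 genes separated the groups library by library. Against the 1 CD Onc library of the same header run, the log2 differences were -1.55 for Dusp5, -1.30 for Dusp4 and -1.18 for Etv4. With a term for the runs, Dusp5 stayed called, and Dusp4 (-1.25, adjusted p = 0.107) and Etv4 (-1.40, adjusted p = 0.139) did not. In that fit 4.43% of all genes were called for diet in oncogene livers.

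Dusp6 was at 58.1 ± 15.1 CPM on LPD and 98.1 ± 17.4 CPM on CD. The groups did not overlap, and the log2 fold change of -0.75 (SE 0.29) had an adjusted p of 0.0925 in edgeR. Without CD Vec replicate 3, a library of neither group compared, it was -0.76 (adjusted p = 0.035). Etv5 also separated the groups, at 3.89 ± 0.591 CPM on LPD and 5.25 ± 0.579 CPM on CD, with a log2 fold change of -0.44 (adjusted p = 0.192, SE 0.22, edgeR). Ccnd1 did not, and its log2 fold change was -0.69 (adjusted p = 0.3, SE 0.44). Met (0.08, SE 0.20), Hgf (0.41, SE 0.47), Spry2 (-0.32, SE 0.34) and Spry4 (0.19, SE 0.33) each differed by less than 1 SE.

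**Figure D3:**
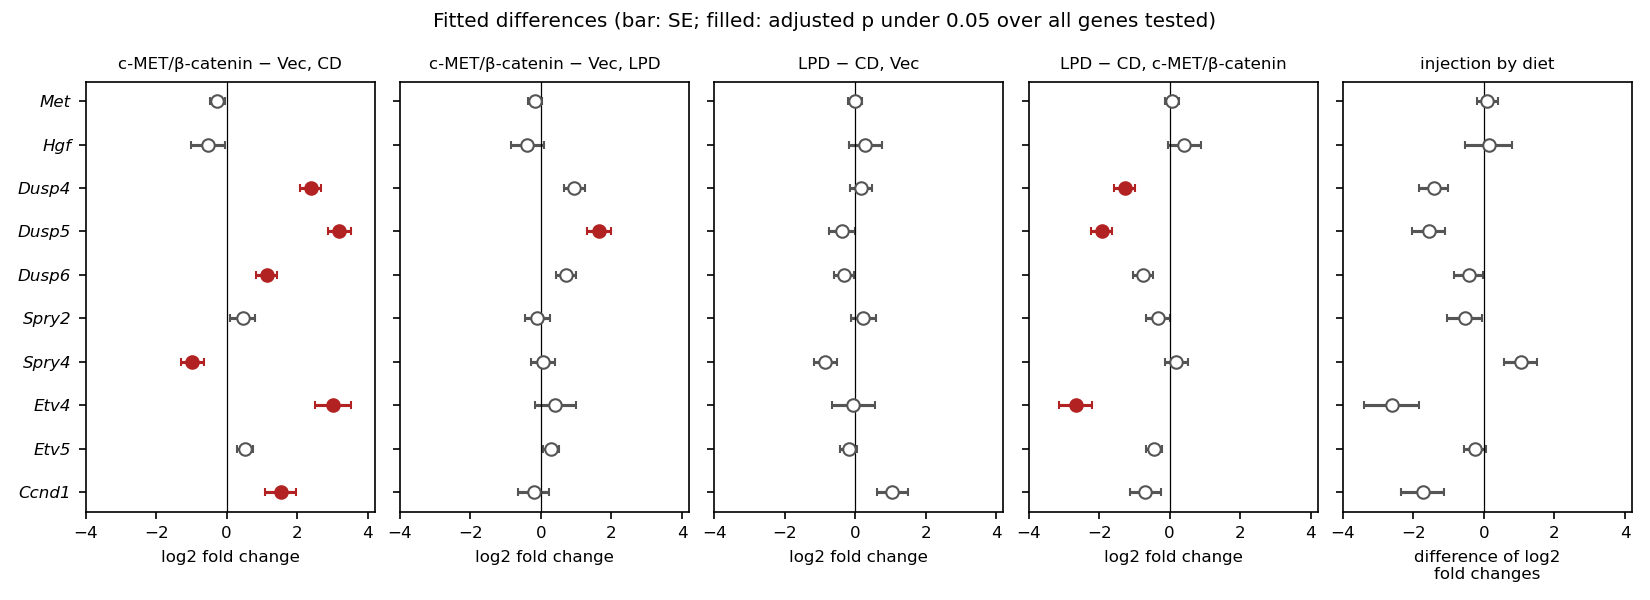
Each panel shows 1 comparison, with the log2 fold change on the horizontal axis, bars of 1 SE and 1 row per gene, and filled red points for an adjusted p under 0.05 over all genes tested. There are 6 filled points for Onc against Vec on CD, 1 on LPD, 0 for diet in Vec, 3 for diet in Onc and 0 for the injection by diet interaction.

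The interaction tested whether the difference between Onc and Vec livers was the same on the 2 diets. Whole livers with unlike tumor burden enter it, so it does not give the response per transfected cell. It is the log2 fold change on LPD minus that on CD. No member was called by edgeR at an adjusted p under 0.05, where 8.91% of all genes tested were called, and 5 members had an unadjusted p under 0.05. DESeq2 called 4 members, Etv4 among them, and 15.0% of all genes. Etv4 was tested only through its CD Onc counts, so a negative interaction was largely set by the filter. Without it, 0 of 9 members were called by edgeR. Dusp4 (-1.43, adjusted p = 0.0552, SE 0.42), Etv4 (-2.61, adjusted p = 0.0585, SE 0.78) and Dusp5 (-1.57, adjusted p = 0.06, SE 0.47) lay just outside the threshold in edgeR. In DESeq2 they passed it, with adjusted p of 0.0133, 0.0416 and 0.0246, and Ccnd1 passed too, at -1.75 (adjusted p = 0.03). In edgeR Ccnd1 was at -1.74 (adjusted p = 0.106, SE 0.62) and Spry4 at 1.04 (adjusted p = 0.18, SE 0.46). For these 4 genes the call thus depended on the tool. For Dusp6 the interaction was -0.43 (SE 0.41), and 2 SE reached from -1.26 to 0.39, so an equal response on the 2 diets was within the range.

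Ordered by mean level over the 4 groups, Dusp4, Dusp5 and Dusp6 had nearly the same order, from the Vec groups through LPD Onc to CD Onc. For Dusp5 the upper steps were free of overlap, whereas for Dusp4 and Dusp6 only the step to CD Onc was. For Etv4 and Etv5 likewise only CD Onc stood apart. How large a share of all genes has such steps was not computed. For Spry4 it was CD Vec, the highest group, that stood apart from the others, and for Met, Hgf, Spry2 and Ccnd1 each group overlapped its neighbour. Over the 12 libraries, the pair of members with the most alike profile was Dusp4 and Dusp5, whose standardized log2 CPM differed by a root mean square of 0.30. Dusp5 and Etv4 followed at 0.45 and Dusp4 and Etv4 at 0.52. The least alike were Hgf with Dusp6 and Spry4 with Ccnd1, both at 1.68. The libraries share the same 4 groups, so such likeness includes the group differences given above.

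By the same measure, over 9412 genes with a mean of at least 5 CPM, the profiles nearest to Met were those of Ago1 (0.363), Tbc1d5 (0.371) and Adcy9 (0.372). Nearest to Hgf were Pam (0.306), Amotl1 (0.360) and Col14a1 (0.383), and nearest to Ccnd1 were Camk1 (0.406), Rarg (0.435) and Pld2 (0.446). These are descriptions over 12 libraries.

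The rest of the pathway was read from 5 lists with 81 genes, of which 74 were tested. On CD, 27 of the 74 were called, or 36.5%, beside 35.4% of all genes, and on LPD 1 was, or 1.35%, beside 1.32%. None was called for diet in Vec livers by edgeR, with 5 at an unadjusted p under 0.05 and 1 called by DESeq2, and 16, or 21.6%, were called for diet in Onc livers, beside 20.0%. These shares are near the backgrounds, whereas with scaling by total counts alone 41 were called on CD, or 55.4%, beside 40.7% of all genes. For the interaction 4 of the 74 were called, or 5.41%, beside the 8.91% of all genes. None of these shares was tested against its background, and the lists are described by their genes. Like the members, the lists were chosen with earlier results of these data known.

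Upstream of the members, 7 of 20 genes for MET ligand activation, MET relatives and adaptors were called on CD, 5 higher and 2 lower, with a median of 0.19. This is 35.0%, beside 35.4% of all genes. Mst1r, which encodes the MET relative RON, rose to 3.72 ± 1.12 CPM in CD Onc against 0.346 ± 0.284 CPM in CD Vec (log2 fold change 3.38, adjusted p = 0.00112, SE 0.60). Cd44, whose product can serve as a co-receptor of MET, rose from 3.82 ± 0.614 to 20.4 ± 7.84 CPM (2.41, adjusted p = 0.00025, SE 0.33). Sos1, a RAS exchange factor recruited by receptors, fell from 48.1 ± 9.35 to 29.3 ± 2.81 CPM (-0.71, adjusted p = 0.00258, SE 0.14). On LPD the 1 gene called in the list was Hgfac, the hepatocyte-made protease that activates HGF. It fell from 172 ± 16.3 CPM in LPD Vec to 95.7 ± 8.71 CPM in LPD Onc (-0.85, adjusted p = 0.00917, SE 0.13), with no overlap, and it was also called lower on CD at -0.61 (SE 0.13). Its LPD call was lost without LPD Vec replicate 1 (-0.82, adjusted p = 0.0564) and without LPD Vec replicate 3 (-0.80, adjusted p = 0.0573). In oncogene livers 5 of the 20 differed by diet, 4 lower and 1 higher on LPD, where 20.0% of all genes were called. Sos1 was higher (0.86, SE 0.14), and Cd44 (-1.51, SE 0.31) and Plxnb1, a plexin that can associate with MET (-0.93, SE 0.21), were lower. With the term for header runs the CD calls of Mst1r (2.94, adjusted p = 0.0825) and Sos1 (-0.51, adjusted p = 0.251) and the diet calls of Sos1 (0.71, adjusted p = 0.103) and Cd44 (-0.71, adjusted p = 0.315) were lost, and Cd44 on CD was at 1.56 (adjusted p = 0.0464).

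Of the 14 genes of the RAS, RAF, MEK and ERK cascade, 4 were called on CD, or 28.6% beside 35.4% of all genes, all higher, with a median of 0.09, and none on LPD, where none had an unadjusted p under 0.05 in edgeR and the median was 0.01. Mapk3, which encodes ERK1, rose from 34.1 ± 1.36 to 54.4 ± 9.80 CPM (log2 fold change 0.68, adjusted p = 0.00386, SE 0.15). Nras rose from 29.5 ± 1.58 to 44.4 ± 7.29 CPM (0.59, adjusted p = 0.00342, SE 0.13), and Rasa2, a negative regulator of RAS, from 2.79 ± 0.197 to 6.03 ± 2.51 CPM (1.11, adjusted p = 0.00669, SE 0.26). These fitted values lay below those of Dusp4 and Dusp5. Against Dusp6 (1.14), those of Mapk3 and Nras lay below and that of Rasa2 was close. The differences between genes were not tested. Nras was the 1 gene of the cascade called for diet in oncogene livers, or 7.14% of the 14 beside 20.0% of all genes. Its value was -0.53 (SE 0.12), and without LPD Onc replicate 3 it was at -0.48 (adjusted p = 0.0562). With the clock covariate the CD calls of Nras (0.43, adjusted p = 0.136) and Rasa2 (0.79, adjusted p = 0.186) and the diet call of Nras (-0.46, adjusted p = 0.0516) were lost, and with only the groups compared in the fit that of Rasa2 (1.10, adjusted p = 0.0566). Without CD Onc replicate 1 Rasa2 was at 0.72, still called. With the term for header runs the CD calls of Mapk3 (0.68, adjusted p = 0.137), Nras (0.42, adjusted p = 0.252) and Rasa2 (0.49, adjusted p = 0.505) and the diet call of Nras (-0.38, adjusted p = 0.288) were lost.

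Of 20 other ERK feedback and immediate early genes, 16 were tested, and 7 were called on CD, all higher, with a median of 0.75. This is 43.8%, where 35.4% of all genes were called and 18.7% were called higher, and the difference was not tested. Ier3, an immediate early gene, was at 44.3, 15.1 and 8.01 CPM in CD Onc and at most 1.77 CPM in CD Vec (log2 fold change 4.36, adjusted p = 0.000414, SE 0.64). Dusp10, a phosphatase acting mainly on JNK and p38, rose from 2.54 ± 0.354 to 9.75 ± 2.71 CPM (1.94, adjusted p = 0.000136, SE 0.24). Fos, an AP-1 subunit, was at 20.0, 23.9 and 2.62 CPM in CD Onc and at most 1.48 CPM in CD Vec (3.55, adjusted p = 0.00971, SE 0.89). Fos and Etv4 were both lowest in the third of these libraries. None of the 16 was called on LPD, and none had an unadjusted p under 0.05 there in edgeR. In oncogene livers 3 of the 16 were called for diet, or 18.8% beside 20.0% of all genes. Dusp10 (-1.30, SE 0.23), Ier3 (-3.15, SE 0.58) and Fos (-3.70, SE 0.89) were lower on LPD. Without LPD Onc replicate 1 the Fos value was -3.37 (adjusted p = 0.055) and without LPD Onc replicate 2 it was -3.51 (adjusted p = 0.0529), so that call was lost. With the term for header runs Fos was at 0.44 on CD (adjusted p = 0.869) and -1.14 by diet (adjusted p = 0.554), and Ier3 at 2.61 on CD (adjusted p = 0.0537) and -1.66 by diet (adjusted p = 0.152). The diet call of Dusp10 was lost in that fit too (-1.03, adjusted p = 0.103). For the interaction 3 of the 16 genes were called, or 18.8% beside 8.91% of all genes, a difference that was not tested. They were Dusp10, Ier3 and Egr1, and the Ier3 call was lost in 7 and the Egr1 call in 9 of the 12 fits with 1 library removed, among them those without CD Vec replicate 2 (adjusted p = 0.0782 and 0.0676).

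The EGF receptor family shares the RAS and ERK cascade with MET. Of its 11 listed genes 8 were tested, and the 3 called on CD, or 37.5% beside 35.4% of all genes, were all ligands. Tgfa rose from 22.7 ± 6.31 to 54.3 ± 11.9 CPM (log2 fold change 1.26, adjusted p = 0.00137, SE 0.23), Hbegf from 0.788 ± 0.232 to 3.08 ± 1.50 CPM (1.97, adjusted p = 0.00433, SE 0.43), and Btc from 2.16 ± 1.20 to 8.51 ± 6.29 CPM (1.98, adjusted p = 0.0146, SE 0.54). The Btc call was lost without CD Onc replicate 1 (1.18, adjusted p = 0.0725), with only the groups compared in the fit (1.96, adjusted p = 0.0595) and with the clock covariate (0.70, adjusted p = 0.522). The median of the 8 was 0.03. The same 3 ligand genes were lower on LPD than on CD in oncogene livers, where 20.0% of all genes were called, with log2 fold changes of -0.70 (SE 0.22) for Tgfa, -1.49 (SE 0.41) for Hbegf and -2.37 (SE 0.55) for Btc. The Tgfa call was lost in 8 of the 12 fits with 1 library removed, all but those without CD Vec replicates 2 and 3, CD Onc replicate 1 and LPD Onc replicate 1, with adjusted p from 0.0556 to 0.169 and values from -0.71 to -0.53. It was also lost with a replicate block (adjusted p = 0.0814), with only the groups compared (0.0765) and with the clock covariate (0.104). The Hbegf call was lost without CD Onc replicate 1 or 2 or LPD Onc replicate 1 or 2 (values from -1.34 to -1.27, adjusted p from 0.0782 to 0.0916), with a replicate block (adjusted p = 0.0548) and with only the groups compared (0.075). With the clock covariate Btc was at -1.67 (adjusted p = 0.0556), and without CD Onc replicate 1 at -1.57, still called. With the term for header runs Hbegf was at 0.82 on CD (adjusted p = 0.416) and -0.30 by diet (adjusted p = 0.804), and Btc at 1.05 (adjusted p = 0.546) and -1.78 (adjusted p = 0.202). In that fit Tgfa stayed called on CD (1.35, adjusted p = 0.0321) but not by diet (-0.98, adjusted p = 0.0831). None of the 8 was called on LPD against Vec, where 2 had an unadjusted p under 0.05 in edgeR.

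Around cyclin D1, 6 of 16 genes for G1 cyclins, CDKs and inhibitors were called on CD, all higher, with a median of 0.61. The 6 were Cdkn1a, Cdkn2a, Cdkn2b, Cdkn2c and Cdkn2d, which encode CDK inhibitors, and Ccne1, which encodes cyclin E1. Like Etv4, Cdkn2a and Cdkn2b had enough counts to be tested only through the CD Onc libraries. Without them 4 of 14 were called on CD, or 28.6%, where 35.4% of all genes were, and the median was 0.47. Cdkn2c rose from 3.39 ± 1.16 to 15.5 ± 4.07 CPM (log2 fold change 2.18, adjusted p = 0.000127, SE 0.27). Cdkn1a, which encodes p21, was at 242, 22.8 and 36.0 CPM in CD Onc and at most 6.98 CPM in CD Vec (4.81, adjusted p = 0.00214, SE 0.91). Cdkn2b was at 1.18, 3.35 and 1.24 CPM against at most 0.306 CPM (3.26, adjusted p = 0.0012, SE 0.58). With the clock covariate Cdkn1a was at 2.42 (adjusted p = 0.0922), and without CD Onc replicate 1, its highest library, at 3.04, still called. In oncogene livers 4 genes of the list were lower on LPD, among them Cdkn2b (-3.59, SE 0.58), Cdkn2a, at 0.113 ± 0.0303 CPM on LPD and 0.680 ± 0.0891 CPM on CD, and Cdkn2c (-1.07, SE 0.25). Leaving aside Cdkn2a and Cdkn2b, 2 of 14 were called there, or 14.3%, beside 20.0% of all genes. Without LPD Onc replicate 1 Cdkn2c was at -0.98 (adjusted p = 0.0542), which does not pass. With the term for header runs the CD calls of Cdkn1a (2.90, adjusted p = 0.142) and Cdkn2b (3.06, adjusted p = 0.0829) and the diet calls of Cdkn2a (-2.37, adjusted p = 0.0786) and Cdkn2c (-1.17, adjusted p = 0.0991) were lost. Cdkn2c was also called for the interaction. On LPD against Vec none of the 16 was called or had an unadjusted p under 0.05 in edgeR.

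**Figure D4:**
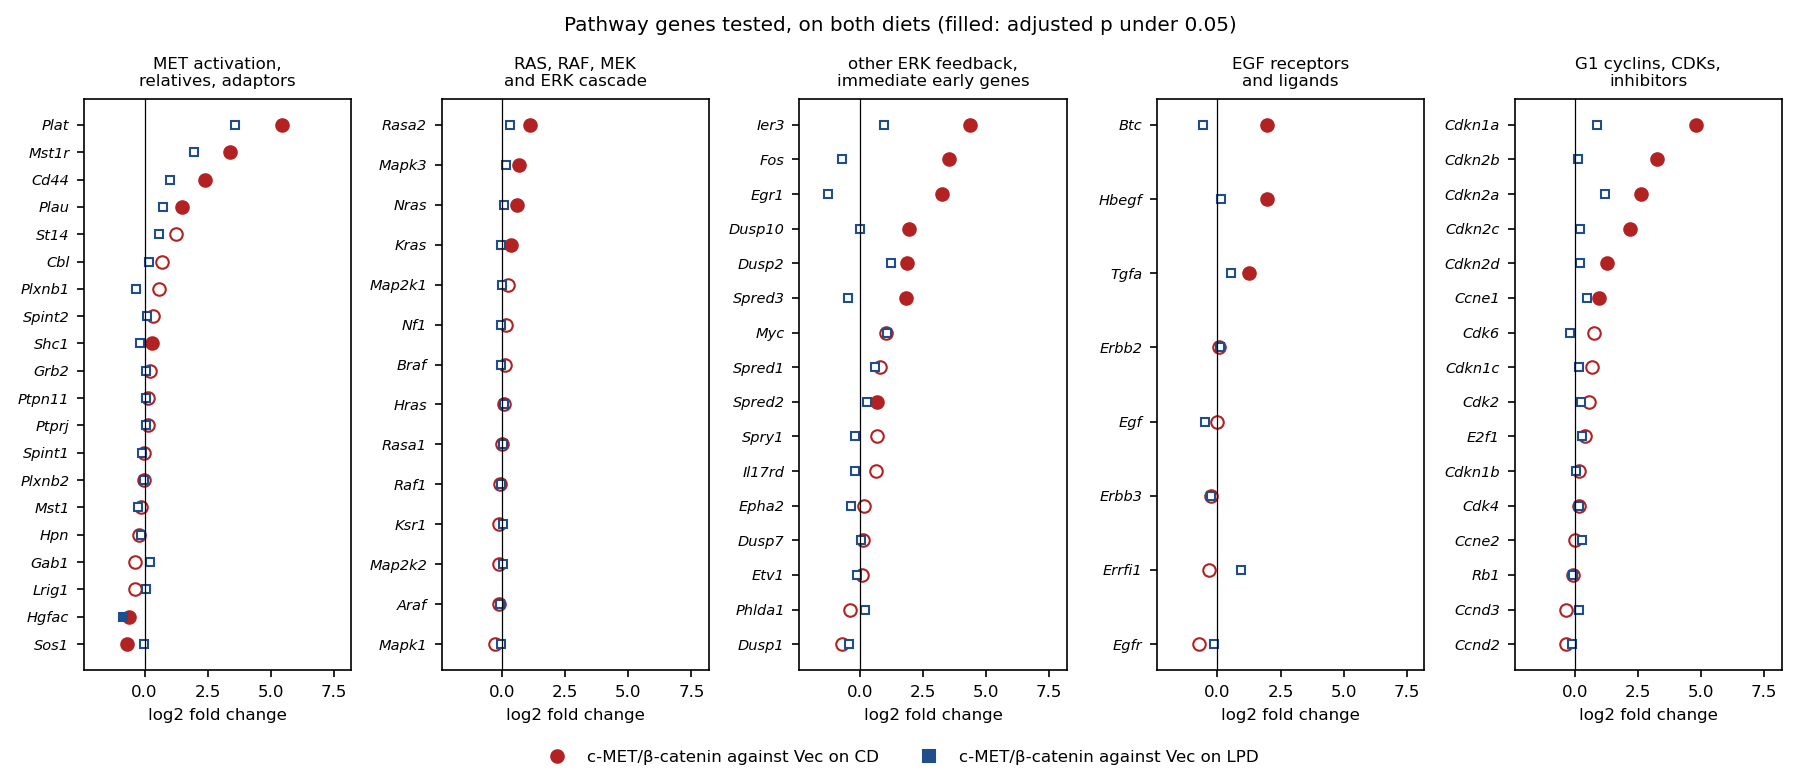
Each panel holds the tested genes of 1 list (rows, ordered by their value on CD), with the log2 fold change of Onc against Vec on the horizontal axis. Red circles are CD and blue squares LPD, filled where the adjusted p was under 0.05. There are 27 filled circles over the 5 panels and 1 filled square, Hgfac.

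Markers of other cells differed between the groups in some lists and not in others. Their counts stand beside the 35.4% of all genes called on CD and the 20.0% called for diet in oncogene livers. The 6 neutrophil markers summed to between 5.17 and 16.8 CPM in CD Onc and to between 1.58 and 3.90 CPM in the other groups, with Ly6g at 0 in both CD groups and in LPD Vec. Only 2 of the 6 were tested, and both were called higher on CD and lower for diet in oncogene livers. The cholangiocyte and progenitor markers summed to between 121 and 382 CPM in CD Onc and to between 36.8 and 57.7 CPM elsewhere, most of it Spp1, at a mean of 253 CPM in CD Onc and 34.7 CPM in CD Vec. Of these markers 2 of 5 tested were called on CD, Spp1 and Krt19, both higher, and Krt7 (0.33), Epcam (-0.50) and Sox9 (-0.41) did not pass. The stellate cell and fibroblast markers summed to between 272 and 636 CPM in CD Onc and to between 259.6 and 368 CPM elsewhere, and 8 of 10 were called in oncogene livers by diet, 4 in each direction. Among the 8 Kupffer cell and macrophage markers, 1 was called higher on CD, and sums lay between 193 and 342 CPM there, between 219 and 392 CPM in LPD Onc and between 106 and 244 CPM in Vec livers. Of the endothelial markers 2 of 8 were called on CD, both lower, of the T and NK cell markers 4 of 8, 3 higher and 1 lower, and of the B cell markers 0 of 4 by edgeR, none of which had an unadjusted p under 0.05. For diet in oncogene livers 2 of 8 endothelial and 1 of 4 B cell markers were called higher on LPD. Lower there were 2 of 5 cholangiocyte and progenitor markers tested and 1 of 8 Kupffer cell and macrophage markers. Of the T and NK cell markers 0 of 8 were called there by edgeR. The 8 hepatocyte markers summed to between 104779 and 106507 CPM in CD Vec and to between 89702 and 95928 CPM in CD Onc. In LPD Vec the sums lay between 89141 and 118556 CPM, and in LPD Onc between 66660 and 99985 CPM. On CD 3 of the 8 were called, all lower, and for diet in oncogene livers 3 were, 1 higher and 2 lower. The part of hepatocytes and of the other cells in the levels of Dusp4, Dusp5, Dusp6, Etv4 and Ccnd1 was not tested.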

How the data were processed

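RNA from 12 mouse livers was analysed, 3 in each of 4 groups assigned by the titles in the labels. The count table holds whole-number read counts per gene as deposited by the authors, with no normalization. Per the labels and the study's methods, reads were aligned to mm10 with HISAT2 and counted with featureCounts. Versions, the strand setting and the treatment of reads with several placements are not given in the sources used here, so genes that overlap others on the opposite strand are uncertain. The labels describe ribosomal RNA depletion, and the methods describe selection of mRNA. Column names call the chow samples HPD, and the chow reading of the titles was kept.

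Counts were tested in R 4.3.3 with edgeR 4.0.16 (TMM factors from 0.864 to 1.12, the filterByExpr filter, quasi-likelihood test, robust dispersion), in 1 fit of all 12 libraries with 1 coefficient per group. Of 27179 genes, 13947 were tested. P-values were adjusted by Benjamini-Hochberg over all of them, and genes under 0.05 were called. SE were taken as the size of the log2 fold change divided by the root of its F statistic. CPM are TMM scaled, and totals of 19476209 to 31990267 make 10 counts about 0.451 CPM, the filter's limit. No replicates were duplicates. P-values set a group difference against the spread between livers within groups, estimated from all 12 libraries with information shared across genes. DESeq2 1.42.0, other scalings and filters, a replicate block, terms for header runs and clock, and leaving out each library were the alternatives.

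The members and lists were chosen with earlier results of these data known. All 10 members were named. From each list and 2-group comparison the 3 called genes with the smallest adjusted p were named, plus every list gene called for the interaction. Gene positions and 8 promoter windows for 6 members came from RefSeq GRCm38.p6, and exon lengths from GENCODE M21.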

Additional observations from a re-analysis of the deposited data

Results flagged for a closer look

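Pathway genes whose response to c-MET/β-catenin differed between the diets by a test of the difference itself, the injection by diet interaction in edgeR adjusted over all 13947 genes, were 4 of 74 tested, or 5.41%, where 8.91% of all genes were called, and no member was among them. Egr1, an immediate early transcription factor gene, had an interaction of -4.49 (SE 1.18, adjusted p = 0.0401). It was at 3.36, 3.58 and 29.7 CPM in CD Vec, 155, 155 and 36.4 CPM in CD c-MET/β-catenin, 28.3, 97.0 and 39.5 CPM in LPD Vec and 22.7, 18.1 and 28.3 CPM in LPD c-MET/β-catenin, and its log2 fold change was 3.24 (SE 0.87) on CD and -1.25 (SE 0.81) on LPD. Ier3 had an interaction of -3.38 (SE 0.87, adjusted p = 0.0353), with log2 fold changes of 4.36 on CD and 0.97 on LPD. Dusp10 had an interaction of -1.94 (SE 0.34, adjusted p = 0.008) and a log2 fold change of 1.94 on CD, and its mean CPM was 3.95 ± 0.670 in LPD Vec and 3.96 ± 0.513 in LPD c-MET/β-catenin (SD, n = 3 each). Cdkn2c, which encodes a CDK inhibitor, had an interaction of -1.98 (SE 0.37, adjusted p = 0.0107), with log2 fold changes of 2.18 on CD and 0.21 on LPD. All 4 values are negative, in that the response on LPD was below that on CD. The part of the lower tumor burden on LPD in these values was not tested. The Egr1 and Ier3 calls were lost in most fits that left out 1 library, 9 of 12 and 7 of 12, including without CD Vec replicate 2 (-4.05, adjusted p = 0.0676, and -3.17, adjusted p = 0.0782), whereas those of Dusp10 and Cdkn2c were kept in all 12. A replicate block also ended the calls of Egr1 (-4.72, adjusted p = 0.082) and Ier3 (-3.13, 0.0789). So did leaving out the filter on low counts (-4.49, adjusted p = 0.106, and -3.38, 0.0602). With a term for the runs of the count table's header none of the 4 passed, with Egr1 at -2.71 (adjusted p = 0.112), Ier3 at -1.81 (0.341), Dusp10 at -1.66 (0.114) and Cdkn2c at -2.02 (0.0851) in edgeR, where 0.609% of all genes were called. With the clock covariate the calls of Egr1 (-4.90, adjusted p = 0.103), Ier3 (-2.90, 0.161) and Dusp10 (-1.66, 0.0586) were lost too, where 1.86% of all genes were called.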

How the results depend on the processing

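Replicate numbers did not pair the livers, since the deviations of 18 same-numbered pairs correlated between -0.183 and 0.167, with 2 above 0.1. A replicate block left the CD count at 6 members, ended the Dusp5 call on LPD (0 members called, 1.65, adjusted p = 0.0775, edgeR) and gave 2 in place of 4 list genes for the interaction. With that block 32.4% of all genes were called on CD, 1.08% on LPD and 5.82% for the interaction. A term for header runs left 3 members called on CD, 0 on LPD and 1 for diet in oncogene livers, and 4, 2 and 0 list genes on CD, for diet in oncogene livers and for the interaction. In that fit 6.78% of all genes were called on CD, 0.538% on LPD, 4.43% for diet in oncogene livers and 0.609% for the interaction. The clock covariate gave 0 members on LPD, 15 list genes on CD and 2 for the interaction, where 1.20%, 14.6% and 1.86% of all genes were called. The stricter filter gave 4 members on CD and 0 on LPD (Dusp5 adjusted p = 0.0523) and also leaves out Etv4 and Spry2, and no filter gave 2 list genes for the interaction. With the stricter filter 36.6% of all genes were called on CD and 1.23% on LPD, and with no filter 4.85% for the interaction. Total counts only gave 41 list genes on CD, where 40.7% of all genes were called, and, for the interaction, 3 members and 8 list genes, where 9.11% were. That scaling moved the median of all genes on CD from -0.010 to 0.278 and the share of called genes that were higher from 52.8% to 78.8%, and for the interaction from 50.4% to 29.0%. DESeq2 called 4 members and 15 list genes for the interaction, where it called 15.0% of all genes, and 2 list genes on LPD (3.57% of all genes) and 1 for diet in Vec (2.43%). Leaving out 1 library at a time gave 4 to 6 members on CD, 0 to 1 on LPD, 3 to 4 for diet in oncogene livers and 0 to 2 for the interaction. List genes then ran from 23 to 29 on CD, 0 to 1 on LPD, 0 to 1 for diet in Vec, 10 to 21 for diet in oncogene livers and 2 to 9 for the interaction. Without CD c-MET/β-catenin replicate 3, Dusp5 (adjusted p = 0.0475) and Etv4 (0.0133) passed for the interaction in edgeR, and so did Dusp5 without CD Vec replicate 3 (0.0393). The cause of these changes was not tested.

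Direction changed only for values that did not pass the test. With total counts only, Met was at 0.02 on CD, 0.07 for diet in Vec, -0.00 for diet in oncogene livers and -0.07 for the interaction, Spry2 at 0.00 on LPD, Etv4 at 0.03 for diet in Vec and Hgf at -0.03 for the interaction. With the clock covariate, Met was at 0.02 on CD, 0.10 for diet in Vec, -0.05 for diet in oncogene livers and -0.15 for the interaction, and Etv4 at 0.02 for diet in Vec. With the header-run term, Spry2 was at -0.52 on CD, 0.47 for diet in oncogene livers and 0.36 for the interaction. With 1 library left out, on LPD Spry2 ran from -0.31 to 0.09, Spry4 from -0.27 to 0.29 and Ccnd1 from -0.56 to 0.17. For diet in Vec, Met ran from -0.24 to 0.12, Hgf from -0.05 to 0.66, Dusp4 from -0.16 to 0.31 and Etv4 from -0.23 to 0.23. For diet in oncogene livers, Met ran from -0.07 to 0.22 and Spry4 from -0.14 to 0.42, and for the interaction Met from -0.05 to 0.32 and Hgf from -0.25 to 0.77. Counts of 3 to 8 per library limit Etv4 outside the CD oncogene group, and it was tested only through that group.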
